A study of Mus musculus with 9 samples.

Results

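The genes described here are those of mitochondrial fatty acid oxidation, 34 named genes among the 29386 listed in RNA-seq tables of mouse brown fat and cultured brown adipocytes that had lost Setdb1. They were taken by name, not by their values, and cover the activation of fatty acids, the carnitine shuttle, the oxidation of the chain, electron transfer, branched-chain acyl-CoA dehydrogenases, acyl-CoA thioesterases and the fuel switch kinase Pdk4. A fatty acid is first joined to coenzyme A, then carried into the mitochondrion as its carnitine ester, and there shortened in rounds of dehydrogenation, hydration, dehydrogenation and thiolysis. The electrons of the first dehydrogenation go to the respiratory chain through the electron transfer flavoprotein. In brown fat, whose mitochondria release heat through UCP1, this pathway is a main supplier of fuel, and thioesterases work against it by splitting acyl-CoA back into the free acid.

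SETDB1 methylates histone H3 at lysine 9, and the methylated form marks chromatin that is kept silent. In the tissue experiment, brown adipose tissue (BAT) of 2 Setdb1 AKO libraries (Setdb1 fl/fl with Adipoq-Cre) was compared with 2 control libraries (Setdb1 fl/fl without Cre). Adipoq-Cre acts in white as well as brown adipocytes, other cells of the tissue keep Setdb1, and no group carried Cre with an intact Setdb1. In the 4-OHT experiment, primary brown adipocytes with floxed Setdb1 and a tamoxifen-inducible Cre at Rosa26 were given 1 µM 4-hydroxytamoxifen (4-OHT, 1 library) or its ethanol vehicle (ETOH, 1 library). No library received 4-OHT without the floxed allele or the Cre. In the siRNA experiment, primary brown adipocytes received siRNA against Setdb1 (siSetdb1, 2 libraries) or a control siRNA (siNC, 1 library). Whether the siSetdb1 libraries are separate cultures or received different siRNAs is not given in the sources used here; they were taken as replicates of 1 group, and every siRNA error and p-value rests on their spread. The ages and sexes of the mice, the meaning of the prefix TN_CE on the BAT labels, and whether a library came from 1 mouse or 1 culture are not given in the sources used here, so the p-values speak only of the spread among the libraries, which may be technical.

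Reads on genes numbered between 15979479 and 16940622 in the BAT libraries, 30176359 in 4-OHT and 29911734 in ETOH cells, and between 17593799 and 18468152 in the siRNA libraries. Setdb1 itself had 156 and 191 normalised counts in AKO BAT, against 455 and 473 in control BAT (log2 fold change -1.42, SE 0.19, limma adjusted p = 0.0216). It had 620 counts in 4-OHT cells and 1070 in ETOH cells (log2 ratio -0.73). In the siRNA experiment it had 371 and 399 normalised counts in siSetdb1 cells and 784 in siNC cells (log2 fold change -1.02, limma adjusted p = 0.0526). The reduction was thus partial in all 3 experiments. Of the BAT libraries, AKO 1 stood apart for the fatty acid oxidation genes: their median against the control mean was 0.36 on the log2 scale in AKO 1 and 0.052 in AKO 2, against -0.03 in control 1 and 0.03 in control 2.

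The levels of the genes, set side by side per length of gene, spanned several orders of magnitude. A few genes held a different place in tissue than in cells. Levels are given as TPM, the reads per length of gene scaled to 1 total in every library, computed from the reads and the gene lengths the authors deposited. Where compared, that length equalled all annotated exon bases of the gene (Acadvl 2686, Acot11 6056), not the length of 1 transcript. The places of the genes depend on it. In control 1 of BAT, Hadhb had 36667 reads over 6595 bases (806 TPM) and Acaa2 had 37702 reads over 1515 bases (3607 TPM). Tissue and cells were prepared and tabulated separately, so a level set across them carries that difference too. Acaa2, a mitochondrial thiolase that releases acetyl-CoA, had the highest level in every group, 4099 ± 597 TPM in AKO BAT and 3576 ± 44.6 TPM in control BAT (SD, n = 2 each). It had 2396 TPM in 4-OHT and 1619 TPM in ETOH cells, and 3532 ± 46.2 TPM in siSetdb1 cells (SD, n = 2) and 3600 TPM in siNC cells. In BAT the next was Pdk4, the kinase that switches off pyruvate dehydrogenase and so favours fat over glucose as fuel, with 2969 ± 40.5 TPM in AKO and 2964 ± 502 TPM in control libraries (SD, n = 2 each). The third in BAT was Acadl, the long-chain acyl-CoA dehydrogenase, with 2580 ± 303 TPM in AKO and 2371 ± 165 TPM in control libraries. The distance between Pdk4 and Acadl was little more than 1 SD of the more variable of them in either group.

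Pdk4 had 819 TPM in 4-OHT and 694 TPM in ETOH cells, the fifth place in both, and 218 ± 27.0 TPM in siSetdb1 (SD, n = 2) and 184 TPM in siNC cells, places 15 and 18. Acss1 and Cpt1a also changed place between tissue and cells, and Acot11 had a lower level in cells. Cpt1b held place 31 or 32 in every group. Acss1, the mitochondrial acetyl-CoA synthetase, had 139 TPM in AKO and 118 TPM in control BAT, but 4.48 TPM in 4-OHT and 3.95 TPM in ETOH cells, and 19.9 TPM in siSetdb1 and 20.1 TPM in siNC cells. Acot11, a thioesterase first known as the brown fat inducible thioesterase, had 92.4 TPM in AKO and 31.04 TPM in control BAT, and between 3.24 and 4.43 TPM in the 4 groups of cells. The forms of carnitine palmitoyltransferase 1, the step that malonyl-CoA inhibits, were in opposite order. Cpt1b, the form of muscle and brown fat, had 10.4 TPM in AKO and 20.3 TPM in control BAT, where Cpt1a, the form known from liver, had 7.75 TPM in AKO and 8.12 TPM in control libraries. In cells Cpt1a was above Cpt1b, with 52.6 against 3.70 TPM in 4-OHT, 47.1 against 4.15 TPM in ETOH, 30.8 against 1.37 TPM in siSetdb1 and 23.05 against 1.93 TPM in siNC cells. A longer gene model on the same strand, Gm44502, covers 81.4% of the exon bases of Cpt1b in the reference annotation, and whether reads shared by both were counted is not given in the sources used here, so the level of Cpt1b is uncertain.

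**Figure D1:**
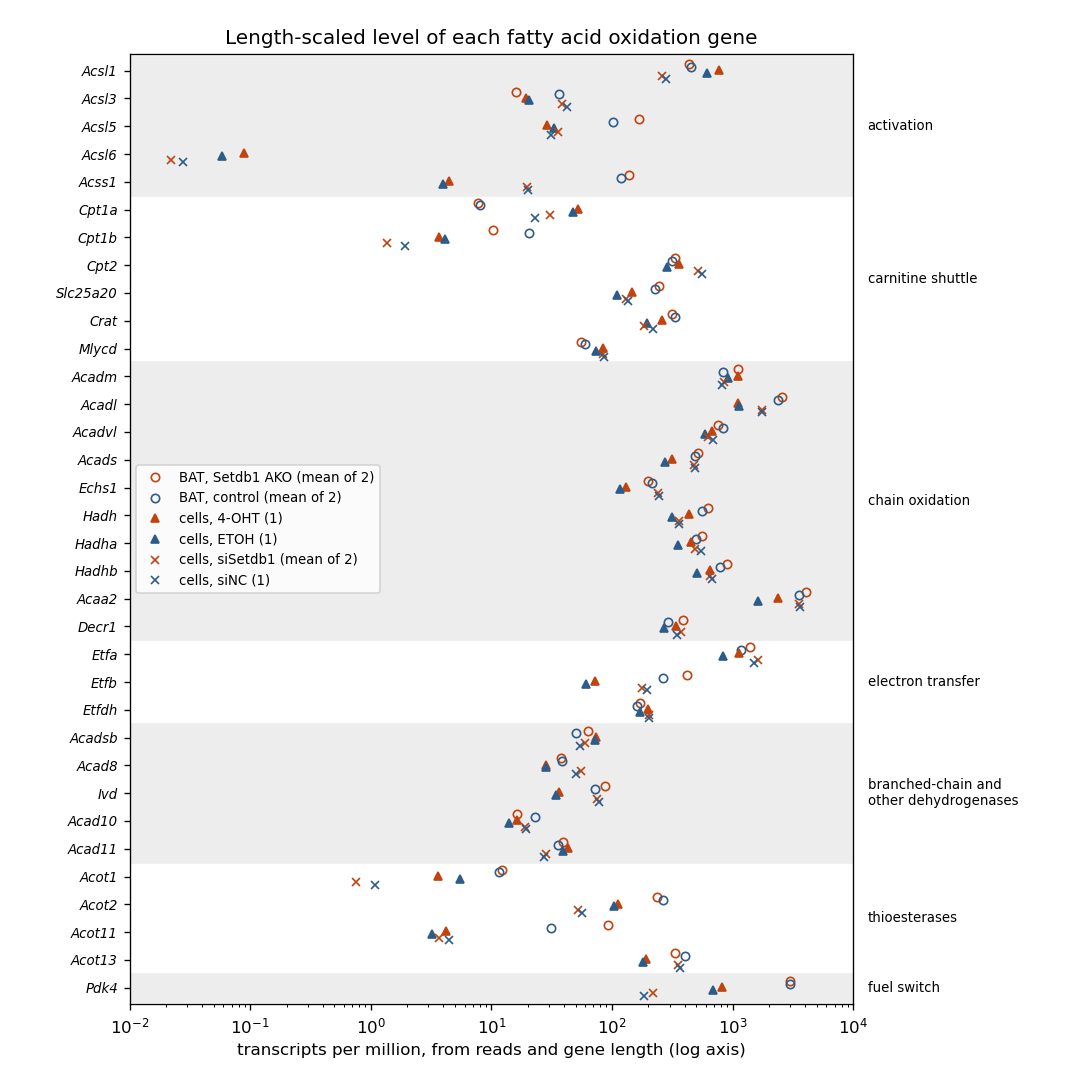
Length-scaled level of each fatty acid oxidation gene in TPM (log axis), by role, in AKO and control BAT, 4-OHT and ETOH cells, and siSetdb1 and siNC cells; points are group means over the libraries given in the legend. Acaa2 is rightmost in all 6 groups, Pdk4, Acot11 and Acss1 lie further right in BAT than in cells, Cpt1a lies further left in BAT than in cells, and Acsl6, which has no row in BAT, has points for cells only.

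In BAT, 3 of the 33 genes tested passed a limma false discovery rate of 0.05. The thioesterase Acot11 and the acyl-CoA synthetase Acsl5 rose in AKO BAT and the acyl-CoA synthetase Acsl3 fell. The 2 higher genes compare with 1% of the 14466 genes tested called higher, the 1 lower gene with 0.677% called lower, and the 3 together with 1.68% called in either direction. Acsl6, a synthetase best known from brain, has no row in the BAT table and was not tested. Both synthetases act ahead of the carnitine shuttle, and ACOT11 undoes the reaction that such enzymes carry out. Without the filter on low counts, where 22721 genes enter the adjustment, none of the 3 was called (limma adjusted p between 0.234 and 0.249).

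Most of the others lay slightly above 0 without passing the test. The fitted log2 fold change was positive for 25 of the 33 genes and negative for 8, with a median of 0.22, whereas 50.6% of all genes tested were positive and their median was 0.01. In 15 genes both AKO libraries were above both control libraries, beside 25.1% of all genes tested, and in 3 (Acsl3, Cpt1b and Acad10) both were below, beside 24.9%. In either direction the groups did not overlap in 18 genes and in 50% of all genes. An unadjusted limma p below 0.05 was reached upwards by 6 genes, Acsl5, Acot11, Acadm, Decr1, Acadsb and Ivd, beside 8.64% of all genes, and downwards by Acsl3 and Cpt1b, beside 9.08% of all genes. The median rested on AKO 1: without it the median was 0.052 with 20 genes positive, and without AKO 2 it was 0.36 with 29 positive. The authors' deposited table has 2 of these 33 genes higher and 2 lower below its adjusted p of 0.05, namely Acot11, Acsl5, Acsl3 and Cpt1b. Of all 22721 genes it lists, 578 are below it in either direction. Their split by direction, and how many genes have an adjusted p there, were not counted.

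**Figure D2:**
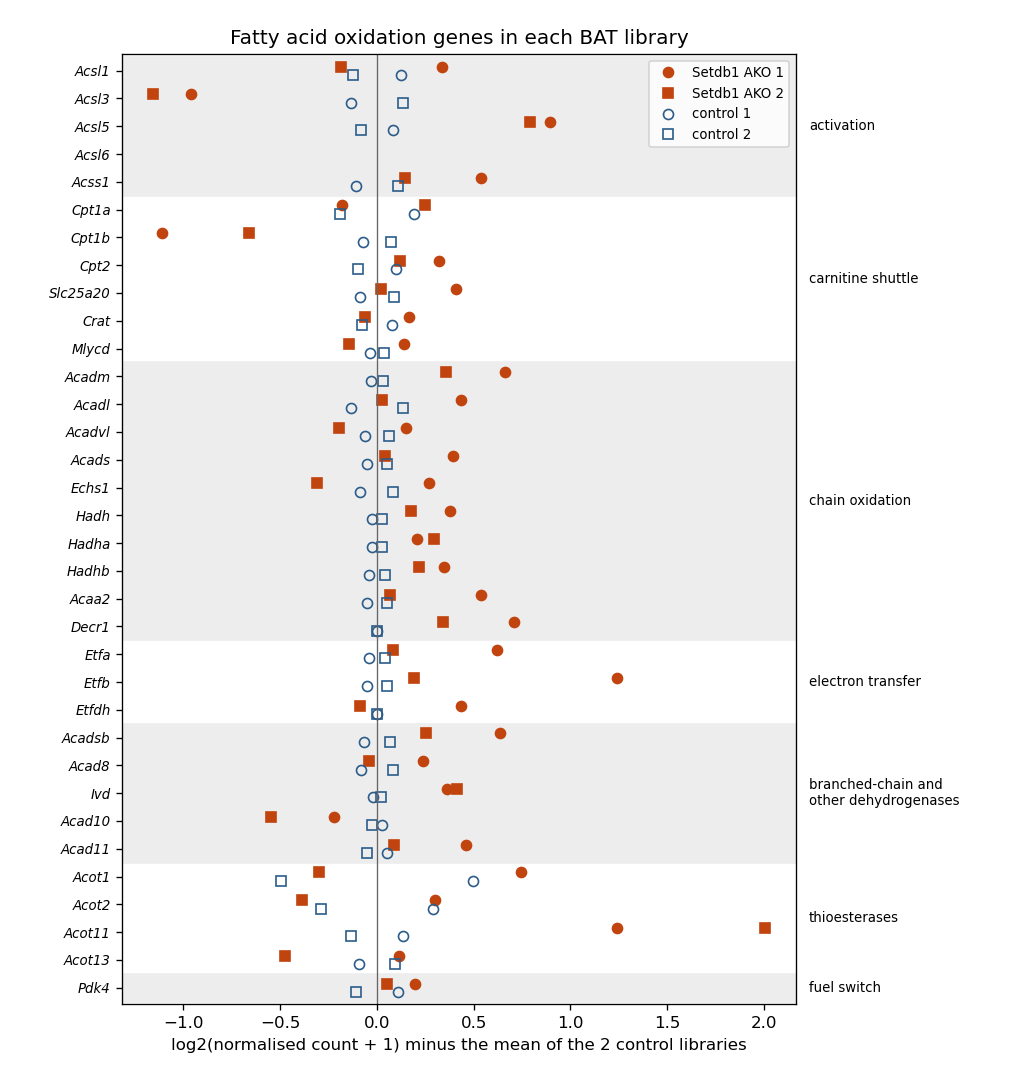
Values of each fatty acid oxidation gene in the 2 AKO libraries (filled) and the 2 control libraries (open) of BAT, as log2(normalised count + 1) minus the control mean, by role. Acot11 and Acsl5 lie right of both control libraries and Acsl3, Cpt1b and Acad10 left of them, and AKO 1 lies right of AKO 2 for most genes of chain oxidation and electron transfer.

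Among the activating enzymes, Acsl5 had 6043 and 5632 normalised counts in AKO BAT, against 3448 and 3073 in control BAT. Both AKO libraries were well above both control libraries, and the log2 fold change was 0.84 (SE 0.15, limma adjusted p = 0.0496), a fold of 1.79. DESeq2 on recovered reads put the adjusted p of Acsl5 at 9.03e-04 and the authors' deposited table at 8.04e-04. ACSL5 is found on mitochondria and on the endoplasmic reticulum. Its call stood at the threshold: the adjusted p was 0.0585 with edgeR's quasi-likelihood test, 0.0515 with TMM scaling and 0.0678 without AKO 2, and between 0.0691 and 0.416 without any of the other libraries in turn. The gene (ENSMUSG00000024981) lies at chr19:55251938-55297720 on the plus strand, build GRCm38 per the submitters' processing notes, and 8.3% of its exon bases overlap Zdhhc6 on the opposite strand, which had 416 and 474 normalised counts in AKO and 496 and 491 in control BAT.

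Acsl3, the synthetase of the endoplasmic reticulum and lipid droplets, had 537 and 468 normalised counts in AKO BAT, against 952 and 1149.5 in control BAT. Every AKO value was below every control value, and the log2 fold change was -1.06 (SE 0.17, limma adjusted p = 0.0353). The call held with edgeR's quasi-likelihood test (adjusted p = 0.0331) but was lost without any 1 of the libraries, where limma's adjusted p lay between 0.0512 without AKO 1 and 0.310 without control 2. Acsl3 (ENSMUSG00000032883, chr1:78657825-78707743, plus strand) overlaps Utp14b, a gene on the same strand, in 5.6% of its exon bases. Utp14b had 150.2 and 133 normalised counts in AKO and 648 and 474 in control BAT (log2 fold change -1.96, SE 0.22, limma adjusted p = 0.0097). In cells neither of this pair moved by as much: on the log2 scale Acsl3 was at 0.03 in 4-OHT over ETOH and -0.18 in siSetdb1 over siNC, and Utp14b at 0.14 in 4-OHT over ETOH and -0.15 in siSetdb1 over siNC.

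The promoters of the called synthetases are shown because genes of 1 enzyme class were called in opposite directions in AKO BAT. Each is the stretch of 250 bases before the RefSeq start in GRCm38.p6, read on the gene's own strand, and capitals mark GGGCGG or its reverse complement, the GC box that Sp1-type factors bind. The Acsl3 stretch is chr1:78657575-78657824 on the plus strand and the Acsl5 stretch is chr19:55253119-55253368 on the plus strand, inside the gene span of the deposited table, which begins further upstream.
Acsl3: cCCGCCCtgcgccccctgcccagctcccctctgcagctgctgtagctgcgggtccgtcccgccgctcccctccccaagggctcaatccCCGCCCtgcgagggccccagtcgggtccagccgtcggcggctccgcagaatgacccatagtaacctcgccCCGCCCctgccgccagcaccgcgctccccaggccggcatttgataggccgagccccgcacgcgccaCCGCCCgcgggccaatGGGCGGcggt
Acsl5: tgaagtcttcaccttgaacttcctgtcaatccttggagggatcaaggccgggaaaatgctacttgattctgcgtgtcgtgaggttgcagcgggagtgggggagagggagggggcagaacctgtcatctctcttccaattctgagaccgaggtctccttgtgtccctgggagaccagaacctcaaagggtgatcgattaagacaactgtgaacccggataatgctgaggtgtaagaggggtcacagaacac
The Acsl3 stretch holds 5 such boxes and 28 CpG dinucleotides, and the Acsl5 stretch holds 0 boxes and 7 CpG dinucleotides. Neither holds AGGTCA, the core hexamer that nuclear receptors such as the PPARs recognise, on either strand. A match or its lack describes only these letters.

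The remaining activating enzymes did not pass the test. Acsl1, the main long-chain synthetase of adipocytes, had 38919 and 27124 normalised counts in AKO and 33591 and 28335 in control BAT. The AKO libraries lay on both sides of the control libraries, and the fitted change of 0.07 (SE 0.26, limma adjusted p = 0.916) turned to -0.19 without AKO 1 and -0.05 without control 2. Acss1, which activates acetate inside the mitochondrion, was at 0.34 on the log2 scale (SE 0.18, limma adjusted p = 0.391). Both AKO libraries of Acss1 (4670 and 3562) were above both control libraries (2992 and 3469), the nearer ones by little.

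In the carnitine shuttle none of the 6 genes passed the test in BAT, and the median log2 fold change was 0.04. Cpt1b stood out, with 209 and 286 normalised counts in AKO BAT, against 430.2 and 477 in control BAT. Both AKO libraries were below both control libraries, and the log2 fold change of -0.89 (SE 0.21) had a limma adjusted p of 0.0912, which DESeq2 on recovered reads put at 0.0351 and the authors' deposited table at 0.0439. CPT1B is also the skeletal muscle form of the enzyme, and BAT can carry adhering muscle. The summed normalised counts of 11 listed muscle markers were 141 and 105 in AKO BAT, against 61.5 and 813 in control BAT, beside Cpt1b at 209 and 286 in AKO and 430.2 and 477 in control BAT. The part of muscle in the Cpt1b values was not tested. Between 4 and 5 of those 11 markers were at 0 in each library other than control 2.

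Cpt1a had 201 and 270.3 normalised counts in AKO BAT, against 260 and 199 in control BAT. The groups overlapped, and the fitted change of 0.04 (SE 0.24, limma adjusted p = 0.960) turned to -0.18 without AKO 2 and -0.16 without control 2. Cpt2, which rebuilds acyl-CoA on the inner membrane, had 6147 and 5348 normalised counts in AKO and 5271 and 4611 in control BAT (log2 fold change 0.22, SE 0.16, limma adjusted p = 0.539). The libraries did not overlap, but the gap between AKO 2 and control 1 was small. Slc25a20, the carrier that exchanges acylcarnitine for carnitine, had 9615 and 7362 normalised counts in AKO and 6830 and 7688 in control BAT (log2 fold change 0.22, SE 0.19, limma adjusted p = 0.605), with the groups overlapping. The fitted changes of Crat, the carnitine acetyltransferase, and of Mlycd, which removes the inhibitor malonyl-CoA, were 0.054 and -0.0022.

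The enzymes that shorten the chain inside the mitochondrion were mostly highest in AKO 1 among the BAT libraries, and none of the 10 passed the test. Their fitted log2 fold changes ran from -0.02 to 0.52 with a median of 0.26, and 8 were positive. Acadm, the medium-chain acyl-CoA dehydrogenase, had 34180 and 27650 normalised counts in AKO BAT, against 21103 and 22086 in control BAT. Its AKO libraries were above both control libraries, and the fitted log2 change was 0.51 (SE 0.21, 95% interval 0.01 to 1.01, limma adjusted p = 0.276). Decr1, the reductase needed for polyunsaturated chains, had the largest fitted change of this role, 0.52 (SE 0.18, limma adjusted p = 0.204).

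Acadl had 42440 and 31920 normalised counts in AKO and 28599 and 34432 in control BAT (log2 fold change 0.23, SE 0.25, limma adjusted p = 0.682). Acadvl, the very-long-chain enzyme of the inner membrane, had 16353 and 12878 normalised counts in AKO and 14113 and 15397 in control BAT (log2 fold change -0.02, SE 0.20, limma adjusted p = 0.970). In both genes the groups overlapped, and the sign for Acadvl turned to 0.15 without AKO 2 and 0.04 without control 2. A further limit for Acadvl is Dvl2 on the opposite strand, which overlaps 42.9% of its exon bases and had 169 and 111 normalised counts in AKO and 285 and 427 in control BAT, far below Acadvl in every library.

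Hadha and Hadhb encode the alpha and beta subunits of the trifunctional protein, which carries the last 3 reactions of long-chain oxidation. Hadha had 33279 and 35436 normalised counts in AKO and 28361 and 29416 in control BAT, and Hadhb had 43939 and 40192 in AKO and 33633 and 35555 in control BAT. In neither gene did the groups overlap, and the log2 fold changes were 0.25 (SE 0.21, limma adjusted p = 0.585) and 0.28 (SE 0.22, limma adjusted p = 0.559). Hadh, the dehydrogenase for shorter hydroxyacyl chains, had 23907 and 20770 normalised counts in AKO and 18025 and 18737 in control BAT (log2 fold change 0.28, SE 0.19, limma adjusted p = 0.509). Acaa2 had 51886 and 37480 normalised counts in AKO and 34583 and 37077 in control BAT (log2 fold change 0.30, SE 0.26, limma adjusted p = 0.588). For Acaa2 the separation rested on AKO 1, since AKO 2 was close to control 2.

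The genes of the trifunctional protein lie head to head. The stretch between their RefSeq starts is shown because from those starts both genes are read away from it. Their RefSeq starts are 273 bases apart in GRCm38.p6, and the 250 bases before the Hadhb start, chr5:30155003-30155252 on the plus strand, lie between them. By the deposited gene coordinates Hadha reaches 30155162 and Hadhb begins at 30155248, so part of this stretch lies inside the Hadha gene span. Capitals again mark GGGCGG.
Hadhb: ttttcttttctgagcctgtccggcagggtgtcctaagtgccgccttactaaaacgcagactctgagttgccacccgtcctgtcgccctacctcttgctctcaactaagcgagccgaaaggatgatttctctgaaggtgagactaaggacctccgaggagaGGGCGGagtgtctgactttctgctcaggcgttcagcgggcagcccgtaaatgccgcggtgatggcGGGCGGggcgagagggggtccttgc
The stretch holds 2 GC boxes, 17 CpG dinucleotides and no AGGTCA. The log2 changes of Hadha and Hadhb were 0.25 and 0.28 in BAT, 0.47 and 0.49 in 4-OHT over ETOH, and -0.17 and -0.09 in siSetdb1 over siNC. Of the Hadhb transcript words of 31 bases, 19.5% also occur in Gm13910, so part of its count is uncertain.

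The electron transfer genes were all positive in BAT, with log2 fold changes between 0.17 and 0.71, and none passed the test. Etfb, the beta subunit of the flavoprotein, was singled out after its values were seen: it had 4779 and 2310 normalised counts in AKO BAT, against 1953 and 2098 in control BAT. AKO 1 was at more than the sum of the control libraries while AKO 2 was just above them, and the log2 fold change of 0.71 (SE 0.31) had a limma adjusted p of 0.291. A longer same-strand gene model, Gm45233, covers 53.0% of the Etfb exon bases, so this count is uncertain as well. The alpha subunit Etfa and the oxidoreductase Etfdh had log2 fold changes of 0.35 and 0.17. The branched-chain and other acyl-CoA dehydrogenases had a median of 0.27, with Acadsb, of isoleucine breakdown, at 0.45 and Ivd, of leucine breakdown, at 0.39. Acad10 was the negative one at -0.38 (limma adjusted p = 0.295), and 22.9% of its 31-base words also occur in Acad12.

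Among the thioesterases, Acot11 had the largest change of all the genes described here. It had 2907 and 4946 normalised counts in AKO BAT, against 1352 and 1121 in control BAT. Both AKO libraries were more than 2-fold above the higher control, and AKO 2 was well above AKO 1. The log2 fold change was 1.62 (SE 0.25, limma adjusted p = 0.0327), a fold of 3.08. The call held with edgeR's quasi-likelihood test (adjusted p = 0.0328), without AKO 1 (limma adjusted p = 0.00797) and without AKO 2 (0.0469), but was lost without control 1 (0.247) or control 2 (0.311), where 1 control library remains. In mice, loss of Acot11 is known to raise energy expenditure, and its protein lies near lipid droplets and mitochondria of brown adipocytes.

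Acot11 (ENSMUSG00000034853) lies at chr4:106744555-106804998 on the minus strand in GRCm38. The antisense gene Fam151a overlaps 20.9% of its exon bases and had 6.17 and 1.03 normalised counts in AKO and 0 and 3.04 in control BAT, near 0 in all 4 libraries. RefSeq gives it separate starts 5176 bases apart, and both promoters are shown because the counts are per gene and do not tell the starts apart. The upstream stretch is chr4:106805008-106805257 and the downstream one is chr4:106799832-106800081, both on the minus strand of GRCm38.p6, with GGGCGG in capitals.
Acot11 upstream: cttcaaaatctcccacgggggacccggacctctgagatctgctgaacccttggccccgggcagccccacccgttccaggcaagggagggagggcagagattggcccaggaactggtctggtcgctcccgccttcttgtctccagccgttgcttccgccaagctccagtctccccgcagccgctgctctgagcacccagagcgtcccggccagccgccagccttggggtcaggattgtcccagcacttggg
Acot11 downstream: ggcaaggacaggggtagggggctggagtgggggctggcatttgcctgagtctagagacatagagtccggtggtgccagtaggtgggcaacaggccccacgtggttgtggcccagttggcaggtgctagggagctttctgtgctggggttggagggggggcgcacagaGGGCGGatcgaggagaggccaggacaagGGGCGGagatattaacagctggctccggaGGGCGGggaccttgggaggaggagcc
The upstream stretch holds 0 GC boxes and 13 CpG dinucleotides, and the downstream one 3 GC boxes and 8 CpG dinucleotides. Neither holds AGGTCA.

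Across the 29 of 34 genes with a RefSeq promoter window, 33 windows of 300 bases in all (250 before and 50 after the start), AGGTCA was found on either strand in 5 windows, or 15.15%, and in 16.26% of all 32851 windows. GGGCGG was found in 22 windows, or 66.67%, and in 35.66% of all windows. A match to 1 of these hexamers cannot overlap a match to the other. GGGCGG itself contains a CpG, and CpG dinucleotides ran from 1 to 45 in these windows, beside a median of 7 over all windows; the part of base composition in that share was not tested. Windows of several starts of 1 gene are not independent.

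The other thioesterases did not follow Acot11. Acot13, a thioesterase found with mitochondria, was at -0.18 on the log2 scale (SE 0.21, limma adjusted p = 0.712). Acot1 of the cytosol and Acot2 of the mitochondrion had 0.22 and -0.05, with groups that overlapped, and since 29.9% of the 31-base words of Acot2 occur in Acot1 their counts may be mixed. Pdk4 had 78198 and 70816 normalised counts in AKO and 73734 and 63254 in control BAT (log2 fold change 0.12, SE 0.27, limma adjusted p = 0.858), with the groups overlapping.

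In the 4-OHT cells the same genes were almost uniformly a little higher than in ETOH cells. There is 1 library per group, so these are values of those libraries with no replicate check and no test. The log2 ratio was above 0 for 30 of the 33 genes counted, with a median of 0.32, whereas 51.7% of all 13969 genes were above 0 with a median of 0.01. Past 1.5-fold were Acaa2 with 33142 counts in 4-OHT and 21356 in ETOH cells (log2 ratio 0.69) and Hadh with 19716 counts in 4-OHT and 13581 in ETOH cells (0.59), 2 genes beside 4.21% of all genes past this fold upwards. None was past it downwards, beside 6.12% of all genes, and 10.3% of all genes were past it in either direction. Below 0 were Acot1 (-0.46), Acsl5 (-0.06) and Cpt1b (-0.04). Acsl6 had 8 counts in 4-OHT and 5 in ETOH cells and was not counted.

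Ordered by role, the medians of the log2 ratios in 4-OHT over ETOH were 0.17 for activation, 0.40 for the carnitine shuttle, 0.44 for chain oxidation, 0.39 for electron transfer, 0.22 for the branched-chain group and 0.22 for the thioesterases. Slc25a20 had 6495 counts in 4-OHT and 4661 in ETOH cells (0.53), Cpt2 had 7875 in 4-OHT and 5925 in ETOH (0.46), and Cpt1a had 2066 in 4-OHT and 1763 in ETOH (0.28). All 3 shuttle genes were thus higher in the 4-OHT library. Acadm had 39938 counts in 4-OHT and 30921 in ETOH cells (0.42), Acadvl had 16427 in 4-OHT and 13839 in ETOH (0.30), and Acadl had 20293 in 4-OHT and 19739 in ETOH (0.09). Hadha had 36088 counts in 4-OHT and 27019 in ETOH cells, and Hadhb had 39298 in 4-OHT and 28969 in ETOH. Among these enzymes Acadl was the one with nearly equal counts. Acsl1, the synthetase with by far the most reads, had 73435 counts in 4-OHT and 56293 in ETOH cells (0.44), while Acsl5 had 1292 in 4-OHT and 1393 in ETOH and Acsl3 had 773 in 4-OHT and 785 in ETOH. The synthetases called in BAT thus showed nearly equal values in the 4-OHT pair. Acot11 had 233 counts in 4-OHT and 171 in ETOH cells (0.49), and Pdk4 had 26252 in 4-OHT and 21206 in ETOH (0.36).

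In the siRNA cells none of the 33 genes tested passed limma's false discovery rate of 0.05, beside 0.0328% of the 15224 genes tested called higher, 0.00657% called lower and 0.0394% in either direction. At an unadjusted limma p below 0.05 there was 1 higher gene (3.02% of all genes) and 1 lower (2.04%), and edgeR and DESeq2 on recovered reads called none of them either. Fitted log2 fold changes were below 0 for 24 of the 33 genes, with a median of -0.06, and 49.3% of all genes tested were above 0 with a median of -0.0034. The median was -0.065 from siSetdb1 library 1 alone and -0.0036 from library 2 alone. Acsl6 had 1.01 and 2.04 normalised counts in siSetdb1 cells and 1.97 in siNC cells and was not tested.

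The gene with the higher unadjusted value was Cpt1a, with 828 and 1036 normalised counts in siSetdb1 cells and 708 in siNC cells (log2 fold change 0.39, SE 0.15, limma adjusted p = 0.938). The lower one was Crat, named after its values were seen, with 6760.3 and 7250.4 normalised counts in siSetdb1 and 8370.0 in siNC cells (log2 fold change -0.26, SE 0.11, limma adjusted p = 0.941). In 23 of the 33 genes siNC lay outside both siSetdb1 libraries, beside 68% of all genes tested: siSetdb1 was higher in 7 (34.1% of all genes) and lower in 16 (33.8% of all genes). Acot11, the leading gene in BAT, had 151 and 161 normalised counts in siSetdb1 and 191 in siNC cells (log2 fold change -0.29, SE 0.22, 95% interval -0.77 to 0.18, limma adjusted p = 0.941). Acsl5 had 1132 and 1300.4 normalised counts in siSetdb1 and 1085 in siNC cells (0.16), and Acsl3 had 1220.1 and 1126 in siSetdb1 and 1326 in siNC cells (-0.18).

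In the siRNA experiment the 95% intervals of the well-read genes Acaa2, Acadl and Acadm were narrower than that of Cpt1b, which had few reads. All of them rest on the spread of 2 siSetdb1 libraries and on 1 siNC library. For Acaa2 the values were 38005 and 37448 normalised counts in siSetdb1 and 38932 in siNC cells, with a log2 interval of -0.30 to 0.21, and for Acadl 23909 and 25782 in siSetdb1 and 25018 in siNC cells, with -0.26 to 0.24. For Acadm the values were 22238 and 24761 in siSetdb1 and 22842 in siNC cells, with an interval of -0.22 to 0.29. The interval of Cpt1b, at 29.4 and 35.6 normalised counts in siSetdb1 and 46.4 in siNC cells, ran from -1.44 to 0.43. The BAT values of Cpt1b (-0.89) and of Acadl (0.23) lie inside their siRNA intervals. The interval of Acot11 leaves out the BAT value of 1.62, though the difference between tissue and cells was not tested.

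**Figure D3:**
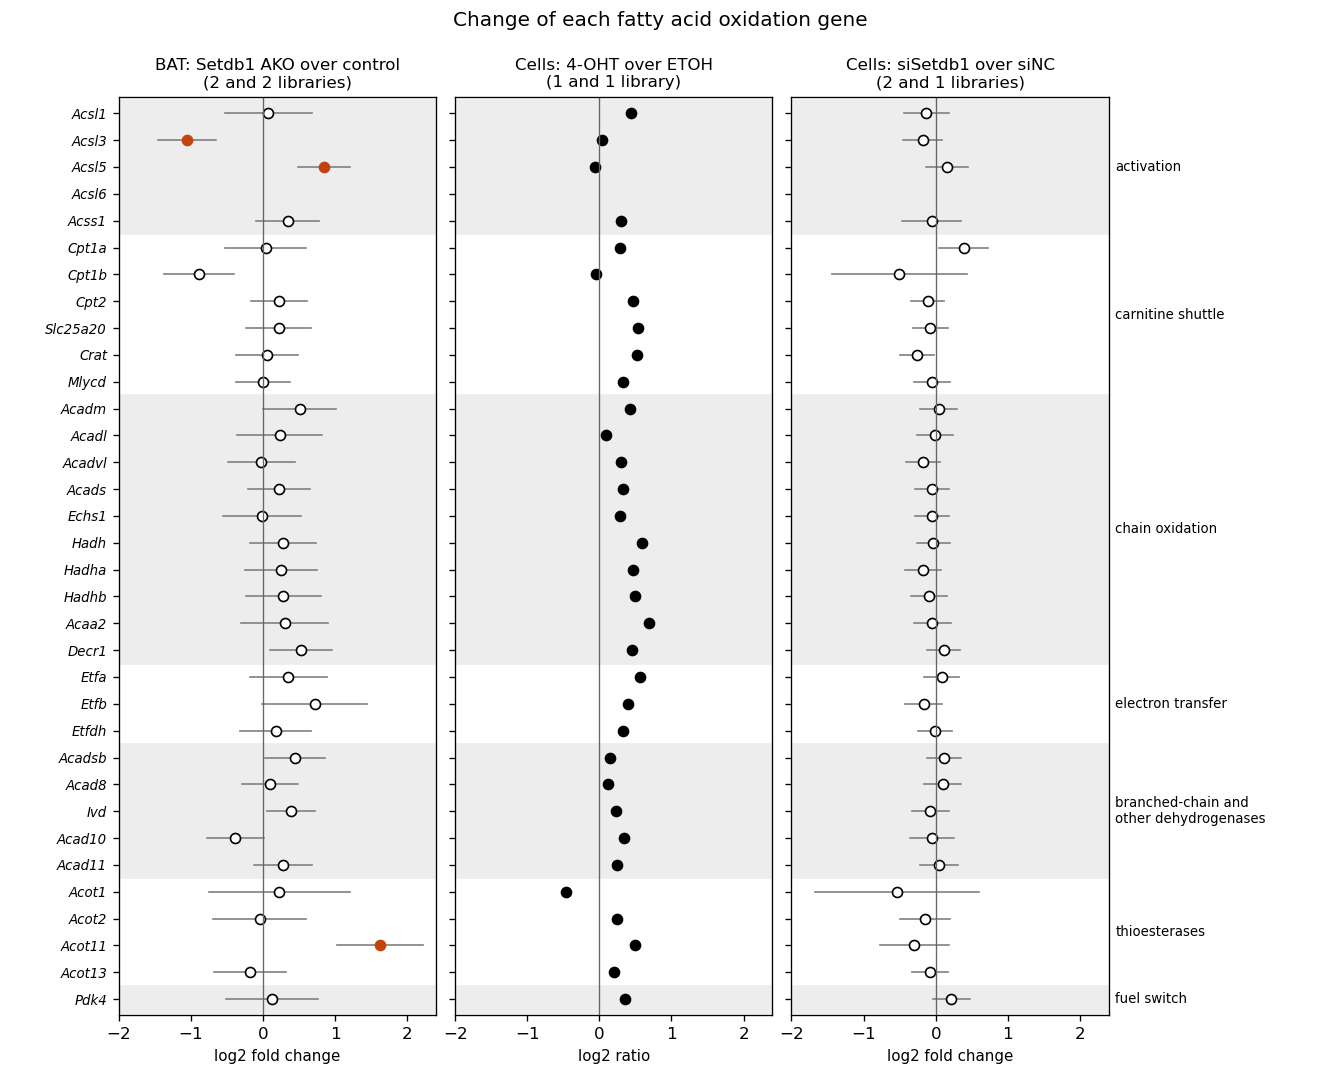
Change of each fatty acid oxidation gene in AKO over control BAT, 4-OHT over ETOH cells and siSetdb1 over siNC cells, by role, with 95% limma intervals where there are replicate libraries; filled red points passed the false discovery rate of 0.05. The red points are Acsl3, Acsl5 and Acot11 in BAT, 30 of 33 points lie right of 0 in 4-OHT cells, and 24 of 33 lie left of 0 in siRNA cells.

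Set side by side, 23 of the 33 genes were above 0 in both BAT and 4-OHT cells, as were 29.3% of the 12215 genes tested in all experiments. Above 0 in all 3 experiments were 8 genes, Acad8, Acad11, Acadm, Acadsb, Cpt1a, Decr1, Etfa and Pdk4, and below 0 in all 3 was Cpt1b. Of all genes, 15.6% were above 0 in all 3 experiments and 13.4% below. Above 0 in BAT and 4-OHT cells but below 0 in siRNA cells were 15 genes, and 13.7% of all genes. These are counts of signs, most of them of changes that did not pass a test. The experiments share no library, but all the fatty acid oxidation genes of an experiment share its libraries and their scaling.

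Other mitochondrial acyl-CoA genes had medians close to these. Of 34 other mitochondrial acyl-CoA genes tested in BAT, such as those of branched-chain and ketone breakdown, 27 were positive with a median log2 fold change of 0.22, and 1 was called, Eci2. Eci2, an enoyl-CoA isomerase, had 32560 and 31106 normalised counts in AKO BAT, against 1909 and 1719 in control BAT (log2 fold change 4.13, SE 0.16, limma adjusted p = 1.05e-04), far above any gene described here. In 4-OHT cells 30 of 33 such genes were above 0 with a median of 0.28 and 6 past 1.5-fold upwards, and in siRNA cells 22 of 34 were below 0 with a median of -0.05.

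Genes for mitochondria in general had a smaller median than the oxidation genes in BAT and a similar one in 4-OHT cells. Of 22 genes of the citrate cycle, respiratory chain and mitochondrial import, 15 were positive in BAT with a median of 0.06, 22 in 4-OHT cells with a median of 0.29, and 1 in siRNA cells with a median of -0.08. None was called in BAT (smallest limma adjusted p = 0.315; smallest unadjusted p = 0.0638) or past 1.5-fold in 4-OHT cells. The 26 known regulators of the pathway, PPARs, PGC-1 coactivators and their partners, had a median of -0.03 in BAT with 11 positive and none called by limma. The smallest limma adjusted p among them was 0.0702 for Foxo1, with 1835 and 2014 normalised counts in AKO and 3637 and 2991 in control BAT (log2 fold change -0.78, SE 0.16), and the authors' deposited table gives Foxo1 an adjusted p of 0.00615. In 4-OHT cells 18 of the 26 regulators were above 0 and 8 below, with a median log2 ratio of 0.14. They ran from -0.46 to 0.56, and none was past 1.5-fold. Ppara and Ppargc1a are picked here from the 18 above 0, and no gene is named from the 8 below. Ppara had 1665 counts in 4-OHT and 1168 in ETOH cells (0.56). Ppargc1a had 923 in 4-OHT and 662 in ETOH cells (0.53). In BAT the log2 fold changes of Ppara and Ppargc1a were -0.02 and 0.06. The part of any regulator in the values of the oxidation genes was not tested. The other kinases, phosphatases and subunits of pyruvate dehydrogenase with the pyruvate carriers, 10 genes, had medians of 0.16 in BAT, 0.30 in 4-OHT cells and -0.07 in siRNA cells, with none called.

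Markers of cell types moved with some of these values. In bulk samples, more cells of a type and more RNA per cell cannot be told apart. In BAT the 9 general adipocyte markers summed to 340354 and 272795 normalised counts in AKO and 264461 and 263800 in control libraries, 8 of 9 were positive with a median log2 fold change of 0.23, and none was called. AKO 1 was thus highest for adipocyte markers as well as for the oxidation genes, which summed to 500543 and 410556 in AKO and 385936 and 385266 in control BAT. It was also highest for the 8 endothelial markers, at 18222 and 14158 in AKO and 14632 and 16678 in control BAT. The same held for the 22 genes for mitochondria in general, at 609356 and 518860 in AKO and 500673 and 538926 in control BAT. For macrophage and fibroblast markers AKO 1 was not highest. The part of adipocyte content in these values was not tested. The 8 brown adipocyte markers summed to 200523 and 130174 in AKO and 187033 and 173918 in control BAT, with a median of 0.02, 4 positive, and Elovl3 called higher by limma (4.27). Dio2, the deiodinase that makes active thyroid hormone and a brown marker below 0, had 12534 and 6460 normalised counts in AKO and 18383 and 19932 in control BAT (log2 fold change -1.09, SE 0.31, limma adjusted p = 0.135), and the authors' deposited table gives it an adjusted p of 0.00736. All 11 fibroblast markers were positive with a median of 0.22, with Pi16 and Pdpn called higher. Their sums of 13199 and 18098.5 in AKO and 14047 and 12590 in control BAT overlapped. The 10 macrophage markers had a median of 0.09 with none called, and sums of 3935 and 4717 in AKO and 5124 and 3285 in control BAT. No adipocyte, brown adipocyte, fibroblast or macrophage marker was at 0 in any BAT library.

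Other markers in BAT concerned few counts or single genes. The 8 endothelial markers had a median of -0.03, and the 5 erythroid markers tested were all positive with a median of 0.58, with none called by limma in either list. In the authors' deposited table the erythroid marker Hba-a1 was at 0.67 with an adjusted p of 0.0208 (limma adjusted p = 0.104). Of 6 B cell markers only Ighm was tested, and it was called higher (log2 fold change 7.07).

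In the 4-OHT experiment the adipocyte markers summed to 315134 counts in 4-OHT and 251043 in ETOH cells. Of these markers 7 were above 0 and 2 below, with a median of 0.41. The brown markers summed to 40298 in 4-OHT and 21215 in ETOH cells, with 7 above 0, 1 below and a median of 0.42. Their log2 ratios were uneven, from -0.11 to 2.59 with 3 past 1.5-fold upwards. The macrophage markers summed to 60392 counts in 4-OHT and 107561 in ETOH cells, with 9 of 10 below 0, a median of -0.59 and 5 past 1.5-fold downwards. The fibroblast markers summed to 421313 counts in 4-OHT and 478656 in ETOH cells, with a median of -0.19. The 4-OHT library thus held more adipocyte and less macrophage and fibroblast signal beside its higher oxidation genes, and the part of these markers in that result was not tested. In siRNA cells the adipocyte markers summed to 267145 and 269091 normalised counts in siSetdb1 and 270343 in siNC cells, and the macrophage markers to 480 and 456 in siSetdb1 and 922 in siNC cells (median -0.99, none called). Markers of the labelled cell type were present throughout: Ucp1 had 104610 and 62875 normalised counts in AKO and 107183 and 88048 in control BAT, 8735 counts in 4-OHT and 8133 in ETOH cells, and 15558 and 13794 normalised counts in siSetdb1 and 16305 in siNC cells.

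**Figure D4:**
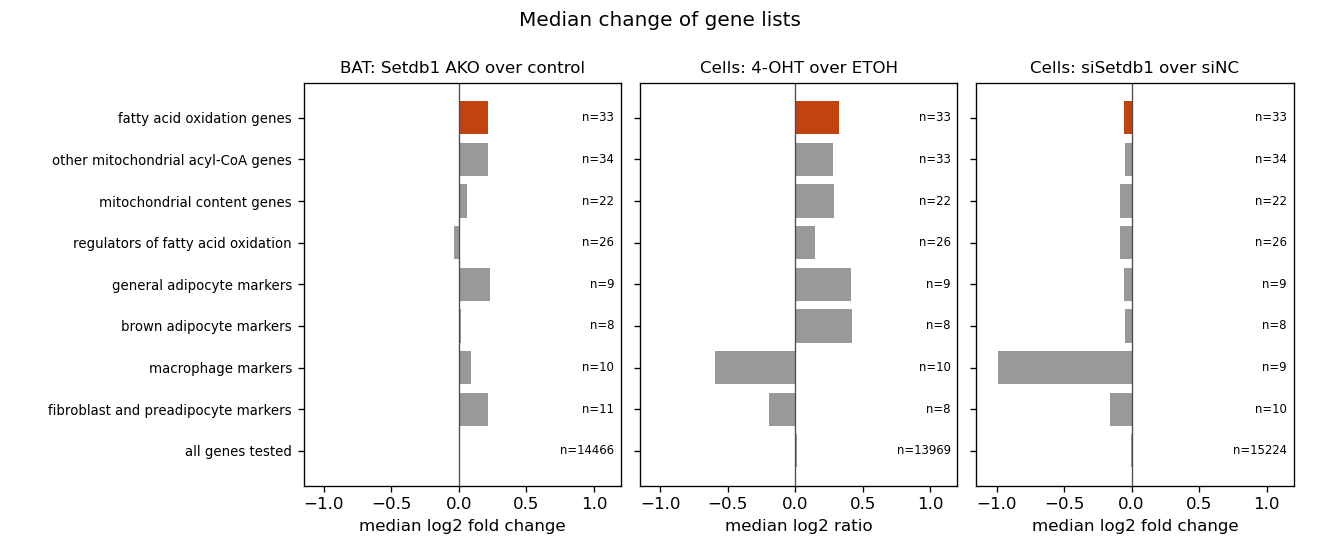
Median log2 change of each gene list in AKO over control BAT, 4-OHT over ETOH cells and siSetdb1 over siNC cells, with the number of genes tested beside each bar and all genes tested at the bottom. The fatty acid oxidation genes (red) are at 0.22, 0.32 and -0.06, near the other acyl-CoA genes in each experiment, and the macrophage markers are lowest in both kinds of cells.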

How the data were processed

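The authors deposited tables made from poly(A) RNA libraries. Build GRCm38 and the tools featureCounts 2.0.3, STAR 2.7.10a, DESeq2 1.36.0 and Trimmomatic 0.39 come from the submitters' processing notes, which give no role or order; annotation release, strand setting and treatment of multi-mapping reads are not given in the sources used here. The deposited BAT and siRNA tables hold a signal per gene and library, the read count times 1 factor per library; the deposited 4-OHT table holds raw counts per gene. Per the file headers, the authors also give a log2 fold change, an adjusted p-value and a gene length, and the first pair is quoted only where named as theirs. Dividing the signal by its step in each library gave back whole reads, 100% of values to within 0.05 reads. Both siRNA tables carry the siNC library, with equal reads for each of their 19381 common genes, and were joined on it with a factor of 1.002427.

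The test was limma 3.58.1 (lmFit, eBayes with trend) on log2(normalised count + 1), which understates changes of low genes, for genes with at least 10 normalised counts in 2 BAT libraries or 1 siRNA library, with Benjamini-Hochberg adjustment over all genes and a threshold of 0.05. All adjusted p-values not named otherwise are from limma. The siRNA fit takes the spread of the siSetdb1 libraries for that of siNC, which has 1 library; fits without a library do the same. For 4-OHT, log2 ratios of TMM-scaled CPM with a prior count of 2 were taken for genes with at least 50 counts in a library. Alternatives used edgeR 4.0.16 quasi-likelihood and DESeq2 1.42.0 on recovered reads, other pseudocounts, filters and scalings, a replicate block, and leaving out each library. TPM were computed from reads and deposited gene lengths. The fits were tested on simulated data. Depth, between 15979479 and 30176359 reads, limits genes with few reads most.

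The genes and lists were chosen with earlier results of these data known. Values in every library are given for members past the threshold, with an unadjusted p below 0.05 and 1.5-fold in BAT, past 1.5-fold in 4-OHT, or known to set the flow (Cpt1a, Cpt1b, Cpt2, Slc25a20, Acsl1, Acadm, Acadl, Acadvl, Hadha, Hadhb, Pdk4). Of 34 members, 34 are in the reference annotation and 32 have the same start and end there. Whether equal replicate numbers in BAT pair libraries is not given in the sources used here. The correlation of deviations (-0.015) cannot decide this with so few libraries per group.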

Additional observations from a re-analysis of the deposited data

Results flagged for a closer look

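For 7 of the 33 fatty acid oxidation genes tested in both, every AKO library of BAT moved to 1 side of the control libraries and every siSetdb1 library moved to the other side of siNC. The log2 fold changes in BAT, with those in siRNA cells after them, were 1.62 and -0.29 for Acot11, 0.71 and -0.17 for Etfb, 0.30 and -0.05 for Acaa2, 0.22 and -0.11 for Cpt2, 0.28 and -0.03 for Hadh, 0.25 and -0.17 for Hadha, and 0.28 and -0.09 for Hadhb. The differences between tissue and cells were not tested, since the tables were scaled separately, and siNC is 1 library. Such opposite separation was found in 21.21% of the fatty acid oxidation genes and in 14.97% of the 13413 genes tested in both. Acot11 alone of the 7 passed limma's threshold in BAT, and none passed it in siRNA cells.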

How the results depend on the processing

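In BAT, 3 fatty acid oxidation genes were called, and fewer without any 1 library. Without a filter on low values 0 were called, where 22721 genes enter and 11 were called higher and 0 lower in all. With equal replicate numbers as a block, which the data do not show to be pairs, 2 were called (limma adjusted p of Acsl5 0.0654) and 181 and 118 genes in all, beside 145 and 98. DESeq2 called Cpt1b as well, with 364 and 287 genes in all, and Etfb was called without AKO 2. The BAT median ran from 0.052 to 0.36 without 1 library; other settings kept it between 0.22 and 0.23. Setdb1 in BAT was -1.42 with adjusted p = 0.206 without the filter, and ran from -1.56 to -1.28 without 1 library, its call lost without control 1 (adjusted p = 0.225) or control 2 (0.230). Reversed without control 2 were Acadvl (0.04), Acsl1 (-0.05) and Cpt1a (-0.16), without AKO 2 Acadvl (0.15) and Cpt1a (-0.18), and without AKO 1 Acsl1 (-0.19); over all 4 such fits Acsl1 ran up to 0.34 and Cpt1a to 0.25. In 4-OHT cells, total-count scaling gave a median of 0.26. DESeq2 size factors or total-count scaling left 1 gene past 1.5-fold (Acaa2). At other folds, 19 were beyond a log2 ratio of 0.32 either way and 0 past 2-fold. The shares of all genes under these settings were not counted, so such counts show nothing particular to the oxidation genes. The siRNA median ran from -0.065 to -0.0036 without 1 siSetdb1 library. Setdb1 in siRNA cells passed the threshold with at least 50 counts (-1.02, adjusted p = 0.00123), DESeq2 (-1.02, 0.0300), edgeR (-1.03, 1.14e-04), pseudocount 5 (-1.02, 0.0491) and TMM scaling (-1.03, 2.39e-05), and no oxidation gene passed in any of them. Causes of these changes were not tested. With 2 libraries per group or fewer, small changes of single genes could not be resolved.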
